A study of Chlamydomonas reinhardtii with 12 samples.

Results

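The transcripts described are the nuclear loci of the green alga Chlamydomonas reinhardtii that the array's probe table ties to exactly 1 locus tag, without 10 tagged loci that the selection leaves out. They numbered 90 loci on 93 array elements, out of 100 tagged loci on 105 elements and 2880 elements in all. Each element is a spotted cDNA in 4 copies, so the 93 elements stood for 372 of 11520 spots. The selection itself uses no measured value, but it was made with earlier results of these data known. The reference gene table lists each of the 90 loci as a protein-coding gene and gives 0 of them a gene name besides the tag. The tables used here pair the loci with no product either. No function is therefore attached to a locus, and the loci are ordered by their pattern over time.

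Wild type CC-125 was compared with the double mutant npq1 lor1 at 3 time points of a shift from low to high light, namely low light itself, 1 h and 6 h. The 12 slides comprised 2 biological samples per time point, each measured on a pair of slides whose dyes were switched. Each slide carried total RNA of both strains. The light intensities and culture conditions were not given in the sources.

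As background, light beyond what photosynthesis can use leads to reactive oxygen in the chloroplast, and xanthophylls, a class of carotenoid, help to dissipate the excess. The npq1 mutation stops the xanthophyll cycle from making zeaxanthin, and lor1 removes lutein and loroxanthin. The strains were compared to see how transcript levels differ when these pigments are missing, before and during the shift.

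The measured value is the strain ratio, a log2 ratio in the deposited sign. Wild type is likely the numerator and npq1 lor1 the denominator, as in the order of the sample titles. A negative value would then mean more transcript in the mutant. The labels do not say which dye a channel held, so this direction is not settled. Across all elements, Pearson's r between slides with exchanged channels lay between -0.57 and 0.13 over 36 pairs, and between slides of the same orientation it lay between 0.31 and 0.83 over 30 pairs. Turning all slides together would change the sign of every ratio and no size or p. If the stated direction were wrong for slides of 1 orientation only, every mean and p would change, which was not tested. Between 2.69% and 42.5% of the spots of these loci had a value of exactly 0 on a slide, which was taken as missing. This left values for 69 to 92 of the 93 elements per slide. The number of biological samples limits the precision. The median standard error of a mean ratio over these elements was 0.0757 in low light and 0.0769 at both later time points.

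Most ratios at these loci lay close to 0. In low light the mean ratios of 82 testable elements ran from -0.31 to 0.64, with a median of -0.02 against -0.01 over all 2396 elements tested. At 1 h, 81 elements ran from -0.50 to 0.59 with a median of 0.01, the same as the median of 0.01 over 2272 elements. At 6 h, 67 elements ran from -0.43 to 0.26 with a median of 0.01, against 0.03 over 2139. Sizes of at least 1.5-fold were reached by 1, 1 and 0 of the tested members at the 3 time points, where 0.918%, 0.836% and 1.08% of all tested elements reached them. Sizes of at least 1.2-fold were reached by 3 of 82 in low light, 3 of 81 at 1 h and 7 of 67 at 6 h, beside 4.47%, 5.55% and 7.43% of all elements.

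**Figure D1:**
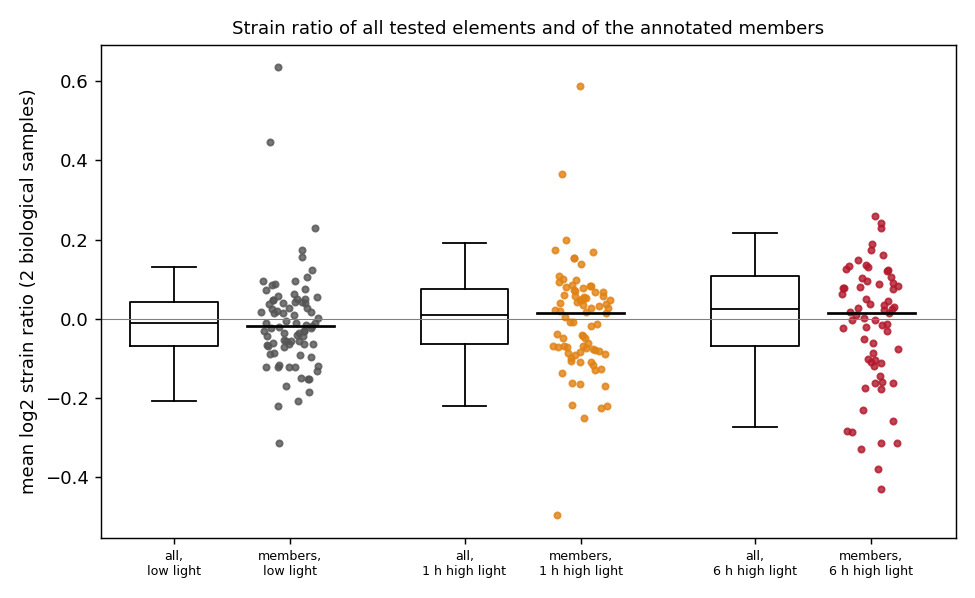
Mean log2 strain ratio (vertical axis) of all tested elements (boxes from the lower to the upper quartile, whiskers at the 5th and 95th percentiles, line at the median) and of the tested members (points, line at the median) at the 3 time points. Member medians of -0.02, 0.01 and 0.01 sit close to those of all elements.

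No member passed limma's test at an adjusted p under 0.05 at any time point. Over all elements the share that passed was 0.334% in low light. It was 0.704% after 1 h of high light and 2.01% after 6 h. The lowest adjusted p of a member over the 3 time points, in order, was 0.0672, 0.111 and 0.0899. The absence of calls at 6 h follows in part from the selection, because the 12 elements of the loci left out held 8 of the 43 calls made there. At an unadjusted p under 0.05 there were 7 of 82 members in low light, 8 of 81 at 1 h and 16 of 67 at 6 h. The corresponding shares of all tested elements were 7.97%, 11.8% and 21.6%, so the members' counts lay near the background.

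All measured slides shared a sign, with an unadjusted p under 0.05, for 4, 5 and 8 members at the 3 time points in order, beside 4.22%, 4.89% and 10.6% of all elements. Signs in low light were positive for 35 and negative for 47 of 82 members, where 44.0% of all elements were positive. At 1 h 42 of 81 were positive, beside 54.1%, and at 6 h 36 of 67, beside 57.5%. Of the 63 members measured at all 3 time points, 11 were positive and 13 negative throughout. That share of 38.1% stood beside 37.9% over all 1895 such elements. Across the 63 members, which share slides, mean ratios in low light correlated with Pearson's r of 0.21 with those at 1 h and -0.01 with those at 6 h, and the later pair gave 0.29. Over all 1895 elements these values were 0.44, 0.32 and 0.45.

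**Figure D2:**
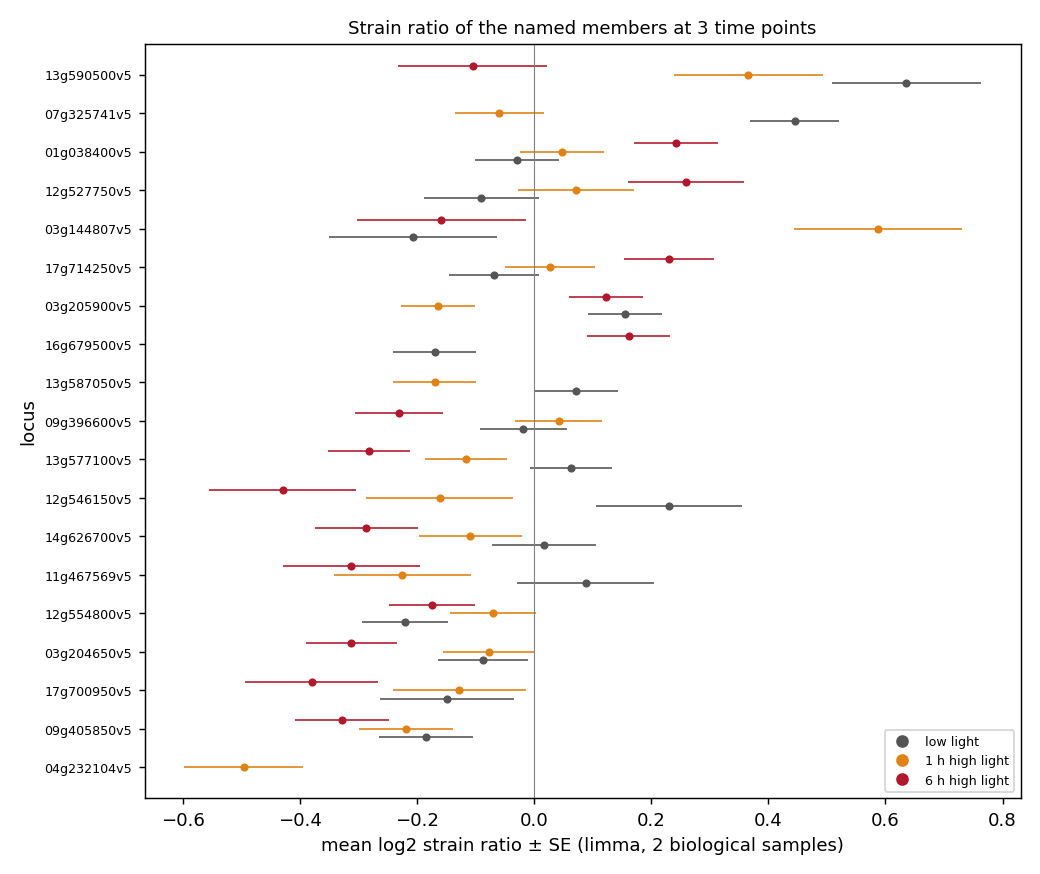
Mean log2 strain ratio with its standard error from limma (horizontal axis) for named loci (rows, tags without their prefix, ordered by mean ratio) with low light in grey, 1 h in orange and 6 h in red. CHLRE_13g590500v5 is the highest in low light at 0.64, CHLRE_03g144807v5 the highest at 1 h at 0.59, and CHLRE_12g546150v5 the lowest at 6 h at -0.43.

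The first pattern was a ratio above 0 in low light that was lower later. CHLRE_13g590500v5 had log2 ratios of 0.20, 0.45, 0.87 and 1.02 on the 4 low light slides, the first pair from biological sample 1 and the second from sample 2. Its slides at 1 h had 0.22, 0.30, 0.63 and 0.31, and those at 6 h had -0.14, -0.10, -0.10 and -0.08. All 8 slides of the first 2 time points were positive and all 4 at 6 h were negative, though exchanged slides of a sample are 1 replicate. Of the 16 spots at 6 h, 3 were positive. Slides of opposite sign were found for 0.738% of all elements between low light and 6 h, and for 0.416% between 1 h and 6 h. The means were 0.64 ± 0.44 (SD, n = 2) in low light, a 1.55-fold difference, then 0.37 ± 0.15 at 1 h and -0.10 ± 0.02 at 6 h. None of the 3 means passed, with limma adjusted p = 0.0784, 0.304 and 0.674. The ratio at 6 h minus that in low light was -0.74 (SE 0.18, unadjusted p = 0.00284, adjusted p = 0.196). The low light ratio was 0.33 in sample 1 and 0.95 in sample 2, and the difference was -1.05 without the former (adjusted p = 0.00455) and -0.43 without the latter (adjusted p = 0.759). Among members measured at all time points, this locus had the highest mean over the 3, at 0.30.

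CHLRE_07g325741v5 had the lowest adjusted p among members in low light. Its slides there had 0.55, 0.20, 0.72 and 0.31, a mean of 0.45 ± 0.10 (SD, n = 2, limma adjusted p = 0.0672). At 1 h they had 0.14, -0.42, 0.15 and -0.11, a mean of -0.06 ± 0.11 (SD, n = 2). The slides with the mutant in channel 1 were the lower ones in every sample at these 2 time points. The difference of -0.51 from low light to 1 h (SE 0.11) had an adjusted p of 0.45. Over 16 alternative ways of processing, the low light ratio of this locus ran from 0.26 to 0.63. At 6 h only sample 1 gave a value, 0.18, and no test was made.

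CHLRE_12g546150v5 had low light slides at 0.21, 0.36, 0.22 and 0.14, all positive. At 1 h the slides had 0.04, -0.04, -0.36 and -0.28. At 6 h they had -0.11, -0.20, -0.71 and -0.69, all negative. The means of 0.23 ± 0.07, -0.16 ± 0.22 and -0.43 ± 0.39 (SD, n = 2) went in 1 direction over the time points, and the difference from low light to 6 h was -0.66 (SE 0.18, limma adjusted p = 0.273). The 6 h ratio itself had an adjusted p of 0.124. Sample 2 stood lower than sample 1 at 1 h and 6 h, with -0.70 against -0.16 at 6 h. The difference from low light to 6 h was -0.93 without sample 1 of 6 h and -0.39 without sample 2.

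CHLRE_11g467569v5 was similar but smaller. Its low light slides were all positive, between 0.05 and 0.18, and its 1 h slides all negative, between -0.48 and -0.05. At 6 h they had 0.09, -0.23, -0.64 and -0.47. The mean ratios were 0.09 ± 0.04, -0.23 ± 0.22 and -0.31 ± 0.34 (SD, n = 2), and the difference from low light to 6 h was -0.40 (SE 0.17, limma adjusted p = 0.406). Here too sample 2 was the lower, with -0.56 against -0.07 at 6 h. The difference was -0.64 without sample 1 of 6 h and -0.16 without sample 2.

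CHLRE_13g577100v5 had samples of 0.07 and 0.06 in low light, -0.02 and -0.21 at 1 h, and -0.30 and -0.27 at 6 h. The ratio at 6 h was -0.28 ± 0.02 (SD, n = 2, limma adjusted p = 0.0899), with all 4 slides negative. It was -0.17 (adjusted p = 0.299) with the running median of neighbouring spots, a regional trend on the slide, subtracted. The slides with wild type in channel 1 gave -0.46 and those with the mutant -0.11. The difference from low light was -0.35 (SE 0.10, adjusted p = 0.318). CHLRE_14g626700v5 lies between this pattern and the third below, because its low light ratio was near 0. Its samples had 0.02 and 0.01 in low light and -0.11 and -0.46 at 6 h. The locus had a 6 h mean of -0.29 ± 0.25 (SD, n = 2, limma adjusted p = 0.139). Its difference from low light to 6 h was -0.30, with an adjusted p of 0.406.

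**Figure D3:**
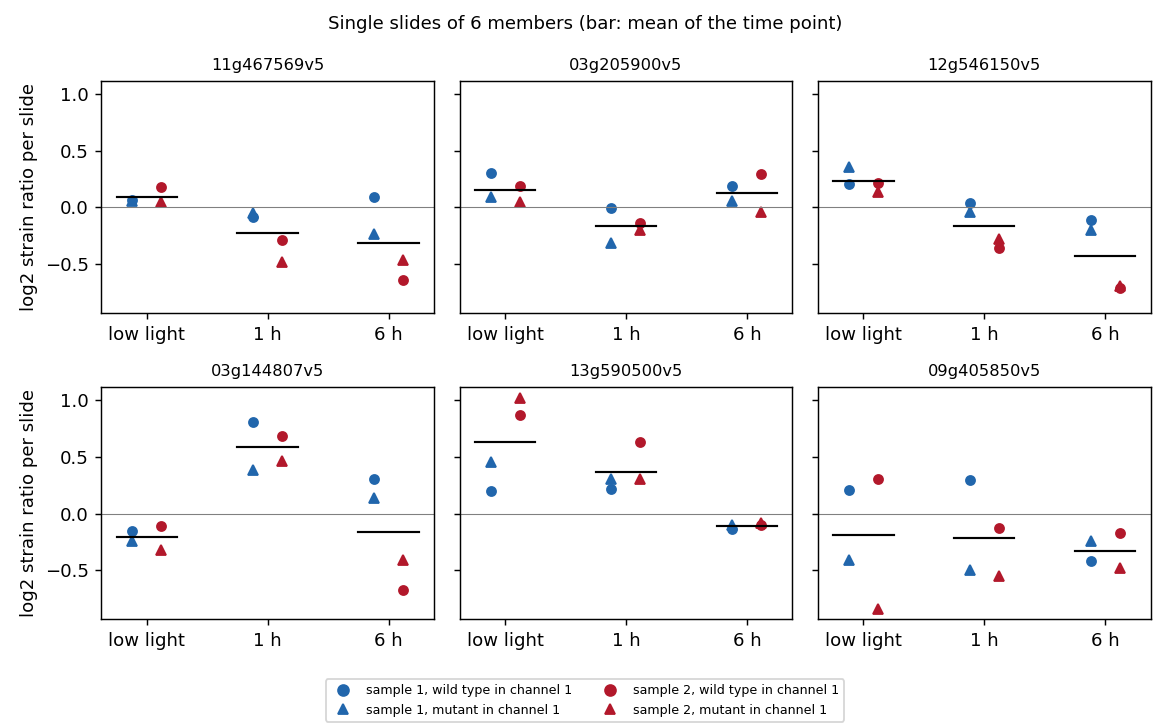
Log2 strain ratio on single slides (vertical axis) of 6 loci at the 3 time points, namely 5 whose slides lay on opposite sides of 0 at different time points and the one with the lowest mean. Blue is biological sample 1 and red sample 2, circles have wild type and triangles the mutant in channel 1, and the bar is the mean of the time point. The 6 h samples of CHLRE_03g144807v5 lie on opposite sides of 0, at 0.22 and -0.54.

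The second pattern was a ratio at 1 h that stood apart from both other time points. CHLRE_03g144807v5 had low light slides at -0.15, -0.24, -0.11 and -0.32, all negative, and 1 h slides at 0.81, 0.39, 0.68 and 0.47, all positive. Its mean was -0.21 ± 0.01 (SD, n = 2) in low light and 0.59 ± 0.02 (SD, n = 2, limma adjusted p = 0.128) at 1 h, where it was the most positive member. The difference of 0.79 (SE 0.20) had an unadjusted p of 0.00388 and an adjusted p of 0.45. The spread of the 6 h samples enters both tests. Over 18 alternative ways of processing, the 1 h ratio ran from 0.43 to 0.75 and this difference from 0.71 to 0.88. The ends of both ranges came from slides of a single orientation. With the running median subtracted, the 1 h ratio was 0.65 (adjusted p = 0.0663) and this difference 0.83 (adjusted p = 0.348). At 6 h the slides of sample 1 had 0.31 and 0.14 and those of sample 2 had -0.67 and -0.41, so the exchanged slides of each sample shared a sign while the samples had opposite signs. The mean of -0.16 ± 0.54 (SD, n = 2) at 6 h is therefore that of samples on either side of 0. From 1 h to 6 h the difference was -0.75 (SE 0.20, adjusted p = 0.23), and it was -1.13 without sample 1 of 6 h (adjusted p = 0.0112) and -0.36 without sample 2 (adjusted p = 0.296).

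CHLRE_03g205900v5 had the opposite sign at 1 h. Its low light slides were all positive, between 0.05 and 0.30, and its 1 h slides had -0.0047, -0.32, -0.14 and -0.20, all negative. The samples lay close together, at 0.19 and 0.12 in low light, -0.16 and -0.17 at 1 h and 0.12 and 0.13 at 6 h. The differences were -0.32 (SE 0.09, limma adjusted p = 0.545) from low light to 1 h and 0.29 (SE 0.09, adjusted p = 0.348) from 1 h to 6 h. CHLRE_13g587050v5 had a mean of 0.07 in low light and -0.17 ± 0.10 (SD, n = 2, adjusted p = 0.405) at 1 h, and only sample 1 gave a value at 6 h, 0.12.

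CHLRE_04g232104v5 could be tested only at 1 h, so no pattern over time was assigned to it. Its slides there had -0.57, -0.05, -0.68 and -0.69, a mean of -0.50 ± 0.27 (SD, n = 2, limma adjusted p = 0.111), the most negative of the members at 1 h. It was -0.31 without sample 2 of 1 h and -0.68 without sample 1. Sample 1 had -0.82 at 6 h, from slides at -0.76 and -0.89, but the slide of sample 2 that gave a value had 0.21. In low light 1 slide gave a value, -0.07.

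The third pattern was a negative ratio at 6 h after ratios of the same sign or near 0. Its loci CHLRE_03g204650v5, CHLRE_09g405850v5 and CHLRE_17g700950v5 stand near each other in spot order, at elements 1702, 1738 and 1785. CHLRE_06g296700v5, at element 1758 between them, had -0.18 at 6 h. Subtracting the running median of neighbouring spots brought each of these named loci nearer 0, as given below. How much of their ratios is a regional trend was not tested. CHLRE_09g405850v5 had the lowest mean over the 3 time points, -0.24. Its samples had -0.10 and -0.27 in low light, -0.10 and -0.34 at 1 h and -0.33 and -0.33 at 6 h. The mean at 6 h was -0.33 (SE 0.08, limma adjusted p = 0.0899) and all 4 slides were negative. With the running median subtracted it was -0.10 (adjusted p = 0.542). In low light its exchanged slides differed widely, with 0.21 and 0.30 where wild type was in channel 1 and -0.41 and -0.84 where the mutant was.

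CHLRE_17g700950v5 had samples at -0.42 and -0.34 at 6 h, a mean of -0.38 ± 0.05 (SD, n = 2, limma adjusted p = 0.135). With the running median subtracted it was -0.19 (adjusted p = 0.488). Its 6 h slides split by orientation, with -0.77 and -0.48 where wild type was in channel 1 and -0.06 and -0.21 where the mutant was. Its means in low light and at 1 h were -0.15 and -0.13.

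CHLRE_03g204650v5 had slides at -0.26, -0.25, -0.38 and -0.36 at 6 h, a mean of -0.31 ± 0.08 (SD, n = 2, limma adjusted p = 0.0899). With the running median subtracted the mean was -0.11 (adjusted p = 0.517). In low light and at 1 h its mean ratios were -0.09 and -0.08, each from exchanged slides of opposite sign. CHLRE_09g396600v5 had -0.02, 0.04 and -0.23 at the 3 time points, and the difference from 1 h to 6 h was -0.27 (SE 0.11, adjusted p = 0.511). It was -0.16 with the running median subtracted and -0.16 without sample 2 of 1 h.

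CHLRE_12g554800v5 was negative in low light without a clear pattern over time. Its slides there had -0.02, -0.35, -0.01 and -0.50, a mean of -0.22 ± 0.05 (SD, n = 2, limma adjusted p = 0.363). The means at 1 h and 6 h were -0.07 and -0.18. Its slides with the mutant in channel 1 were the lower ones in every sample at all 3 time points.

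The fourth pattern was a higher ratio at 6 h. CHLRE_01g038400v5 had slides at 0.33, 0.04, 0.36 and 0.24 at 6 h, all positive, a mean of 0.24 ± 0.08 (SD, n = 2, limma adjusted p = 0.132), after -0.03 in low light and 0.05 at 1 h. CHLRE_12g527750v5 had the highest mean of a member at 6 h, 0.26 ± 0.06 (SD, n = 2, adjusted p = 0.193), after -0.09 and 0.07. Its 6 h slides had 0.51 and 0.49 where wild type was in channel 1. Where the mutant was, they had 0.09 and -0.05. Its 1 h samples had opposite signs, at -0.14 and 0.28. Its difference of 0.35 from low light to 6 h (SE 0.14) had an adjusted p of 0.406.

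CHLRE_16g679500v5 had -0.17 in low light and 0.16 at 6 h, a difference of 0.33 (SE 0.10, limma adjusted p = 0.347). With the running median subtracted the difference was 0.18 (adjusted p = 0.787). Its exchanged slides lay far apart at 6 h, with 0.74 and 0.66 where wild type was in channel 1 and -0.27 and -0.48 where the mutant was. CHLRE_17g714250v5 had -0.07, 0.03 and 0.23 at the 3 time points, and its difference from low light to 6 h was 0.30 (SE 0.11, adjusted p = 0.391). Its slides at 6 h also split by orientation, with 0.56 and 0.60 against 0.0023 and -0.23.

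**Figure D4:**
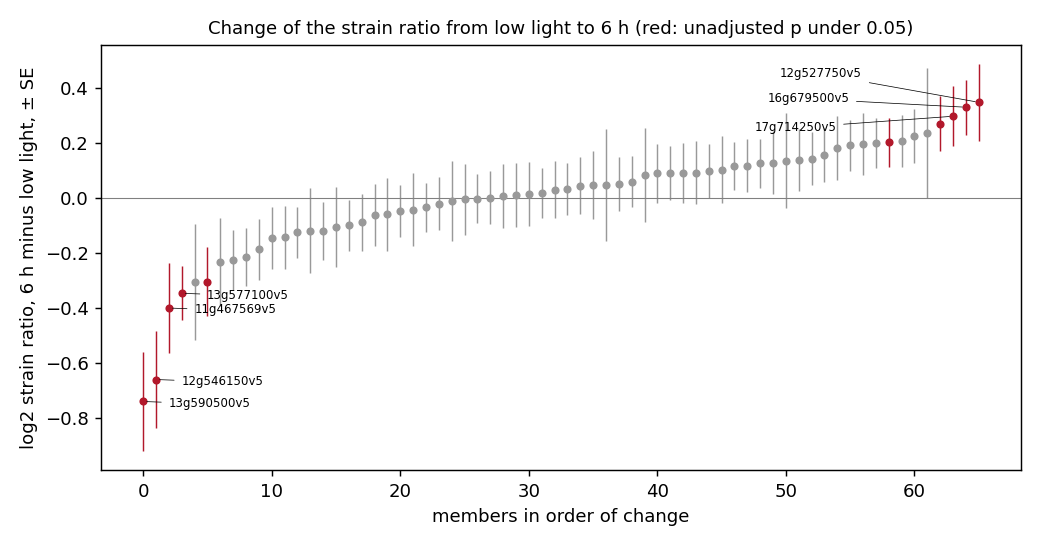
Log2 strain ratio at 6 h minus that in low light, with its standard error from limma (vertical axis), of the 66 members tested, in order of that difference. Red points have an unadjusted p under 0.05, and the difference runs from -0.74 for CHLRE_13g590500v5 to 0.35 for CHLRE_12g527750v5.

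Changes of the ratio between time points gave no member past the adjusted threshold in limma's test. The shares of all elements that passed were 0.0456% from low light to 1 h, 0.0492% from low light to 6 h and 0.208% from 1 h to 6 h. At an unadjusted p under 0.05 there were 4 of 77 members for the first change, beside 5.15% of all elements. Between low light and 6 h there were 10 of 66, beside 11.6%, with 5 positive (6.20% of all elements) and 5 negative (5.36%). For the change from 1 h to 6 h there were 4 of 63, beside 9.09%. These 3 changes share samples and are not independent of each other.

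A few loci had more than 1 element, which gives a second reading from another clone. The elements of CHLRE_03g199800v5 had -0.06 and 0.06 in low light, 0.02 and 0.0046 at 1 h, and 0.15 and -0.0042 at 6 h. The 6 h value of 0.15 (SE 0.06) had a limma adjusted p of 0.222. CHLRE_01g010000v5 had -0.06 and 0.03 in low light and 0.06 and -0.01 at 1 h, and the ratio at 6 h could be tested for 1 element, at 0.12. CHLRE_09g400775v5 could be compared at 6 h only, with -0.06 and -0.0032. None of these pairs held a value past the adjusted threshold.

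Of the 93 elements, 63 could be tested at all 3 time points, 17 at 2, 7 at 1 and 6 at none. CHLRE_09g388800v5 had no measured spot on any slide. The other 5 without a test were CHLRE_10g459750v5, CHLRE_02g113200v5, CHLRE_17g707700v5, CHLRE_17g730950v5 and CHLRE_09g395950v5. CHLRE_17g730950v5 had sample 1 at 0.09, 0.11 and 0.10 over the time points, and the lack of a second sample left these values without a test. For CHLRE_09g395950v5, sample 1 had 0.05 at 1 h and -0.29 at 6 h.

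Exchanged slides of a sample lay further apart than the means of the 2 biological samples did. These gaps are unlike measures, because single slides hold any dye effect and a sample is the mean of its exchanged slides. The median gap between exchanged slides over members lay between 0.2578 and 0.394 on the log2 scale across the 6 samples. Between biological samples the median gap was 0.0688 in low light. It was 0.152 at 1 h, and 0.111 at 6 h. Members with the same sign on both exchanged slides made up 20.0% to 48.9% of those measured, beside 19.1% to 45.3% of all elements. The part of the dye in single ratios was not tested.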

How the data were processed

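Transcripts of wild type CC-125 and npq1 lor1 were measured on 12 two-colour cDNA slides. The deposited values are log2 ratios after SNOMAD normalization by the authors, per the labels; SNOMAD's settings and the centring are unknown. Slides with the mutant in channel 1 were deposited as Cy5 over Cy3 and the others as Cy3 over Cy5, per the labels, so no sign was turned. Slide medians over elements ran from -0.18 to -0.02 on the former slides and from 0.08 to 0.17 on the latter. Scanner intensities were not analysed here.

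Values of 0 were treated as missing. An element's value was the mean of at least 2 of its 4 copies, which stand 2880 spots apart. The mean of both exchanged slides was 1 replicate. Means of the 3 time points were tested against 0 and each other with limma 3.58.1 in R 4.3.3 (lmFit, eBayes, 1 moderated spread per element, two-sided), with Benjamini-Hochberg adjustment over all elements tested and a threshold of 0.05. The procedure was tested on simulated data. Alternatives changed the treatment of 0, the copies needed, their summary, centring, regional trends, the spread, the dye orientation, the replicate block and single biological samples.

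Members and lists were chosen with earlier results of these data known. Named were members past the threshold; per time point, up to 6 in either direction with unadjusted p under 0.05 and 1 sign over all measured slides (3 or more); for each change up to 4 per direction with unadjusted p under 0.05; those with the highest and lowest mean over time points in each function class; loci with more than 1 element; and members never testable. All loci fell in 1 class, unnamed product, because the tables give tags only. The 4 patterns group named loci after their values were seen, and not every named locus has one.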

Additional observations from a re-analysis of the deposited data

Results flagged for a closer look

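For 5 loci, every slide of 1 time point lay on one side of 0 and every slide of another time point on the opposite side. The difference itself was tested with limma in each instance, and none passed the adjusted threshold. From low light to 1 h these were CHLRE_11g467569v5, with a difference of -0.31 (adjusted p = 0.925), CHLRE_03g205900v5, with -0.32 (adjusted p = 0.545), and CHLRE_03g144807v5, with 0.79 (adjusted p = 0.45). From low light to 6 h they were CHLRE_12g546150v5, with -0.66 (adjusted p = 0.273), and CHLRE_13g590500v5, with -0.74 (adjusted p = 0.196). CHLRE_13g590500v5 also met it from 1 h to 6 h, with -0.47 (adjusted p = 0.508). Over members with all slides measured these were 3 of 77, 2 of 66 and 1 of 63 for the 3 changes in that order. The shares over all elements were 0.501%, 0.738% and 0.416%.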

How the results depend on the processing

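The count of members past limma's adjusted threshold was 0 in each of the 6 comparisons. Slides of a single orientation, in which a dye effect does not cancel, gave 1 (wild type in channel 1) and 15 (mutant) in low light, 9 and 19 at 1 h, and 12 and 0 at 6 h, beside 1.74% and 19.5%, 10.7% and 17.3%, and 20.3% and 0.842% of all elements. With at least 3 copies the counts in low light, at 1 h, at 6 h and from low light to 1 h were 2, 1, 3 and 1, beside 1.25%, 1.78%, 4.83% and 0.272%. With the spread taken only from the time point or points compared they were 4, 3, 1 and 1, beside 4.76%, 3.57%, 2.99% and 0.0911%. With all slides and the biological sample as a random block (correlation -0.5185) they were 2, 1 and 3 at the time points, 2 from low light to 6 h and 1 from 1 h to 6 h, beside 1.67%, 2.73%, 4.21%, 1.48% and 1.71%.

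Leaving out 1 biological sample gave 0 to 2 at each time point, beside up to 0.835% (low light), 1.63% (1 h) and 2.66% (6 h) of all elements, and 0 to 1 for each change, beside up to 0.987%. Without sample 1 of low light there were 2 in low light, 2 at 1 h and 1 from low light to 6 h, and without its sample 2 there were 2 at 1 h. Without sample 1 of 6 h there were 2 at 6 h and 1 in low light, at 1 h, from low light to 1 h and from 1 h to 6 h, and without its sample 2 there was 1 in low light, at 1 h and from low light to 1 h. A time point left with 1 sample was assumed to vary like the others. With the replicate number as a block, 0 members passed in each comparison. Deviations of same-numbered samples correlated with r of 0.23 (low light and 1 h), -0.02 (low light and 6 h) and -0.15 (1 h and 6 h). With 2 samples per time point, these correlations cannot settle whether same-numbered samples belong together.

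At an unadjusted p under 0.05, leaving out 1 sample gave 2 to 9 members in low light (2.50% to 9.35% of all elements), 4 to 19 at 1 h (6.56% to 20.6%) and 11 to 24 at 6 h (15.5% to 25.8%). The changes gave 4 to 16 (low light to 1 h, 2.61% to 14.3%), 3 to 15 (low light to 6 h, 3.70% to 15.4%) and 3 to 10 (1 h to 6 h, 6.65% to 11.4%). With the running median subtracted there were 6 at 6 h (12.2%), 6 from low light to 6 h (5.95%) and 2 from 1 h to 6 h (8.88%). It moved 6 of 32 named values by over 1.5 times, 4 of them at 6 h. Over the 32 named values and 18 alternatives, 46 of 559 values passed the adjusted threshold. The alternatives include slides of a single orientation and fits that leave 1 sample at a time point. The named values were chosen by size and unadjusted p in these same data, so the count of 46 is no support for them.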

Other observations

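At 6 h, 5 members had exchanged slides that shared a sign within each biological sample while the 2 samples had opposite signs: CHLRE_03g144807v5, CHLRE_09g386650v5, CHLRE_17g698000v5, CHLRE_13g583550v5 and CHLRE_04g222750v5. They were 5 of 67 measured members, where 4.96% of all elements did the same, and they were chosen after their values were seen. In low light and at 1 h there were 3 of 82 and 3 of 81 members, beside 1.84% and 2.99% of all elements. CHLRE_09g386650v5 and CHLRE_04g222750v5 did so at both 1 h and 6 h.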
